A study of Homo sapiens with 12 samples.

Results

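The genes described here encode the receptors for transforming growth factor beta (TGF-beta), activins and bone morphogenetic proteins (BMPs): 10 listed genes of the 20136 protein-coding genes annotated on GRCh37 (hg19). They were taken from a list of names and not from a measurement, although the list was chosen with earlier results of these data known. They comprise 4 type I receptors (TGFBR1, ACVR1, ACVR1B and BMPR1A), 4 type II receptors (TGFBR2, ACVR2A, ACVR2B and BMPR2) and 2 co-receptors (TGFBR3 and ENG). Trimethylation of lysine 4 of histone H3 (H3K4me3), a chromatin mark found at the starts of active genes, had been profiled by CUT&RUN, in which an antibody directs a nuclease to chromatin and the released fragments are sequenced. The cells were BON1, an established human pancreatic neuroendocrine tumor line. Control cells (BON1/TGL/pQ) were compared with cells that overexpress Bcl-xL, which protects cells from apoptosis, with an HA tag (BON1/TGL/HA-Bcl-xL), to ask whether Bcl-xL altered this mark. All of the cells were of the same BON1/TGL background, were grown with puromycin and were profiled at 500000 cells per condition, with 3 replicates labelled for each of 4 combinations of line and antibody. The labels did not say whether a line was 1 clone or a pool, or whether replicates were separate cultures, so the p-values below measure only the spread between these libraries.

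Peak lists of 11 libraries were used. They comprised H3K4me3 from replicates 1 to 3 of the control and 2 and 3 of HA-Bcl-xL, and IgG, the antibody background of the assay, in replicates 1 to 3 of each line. The first H3K4me3 replicate of HA-Bcl-xL was not analysed here. The H3K4me3 lists held 10247 to 17711 peaks in control and 15497 to 16379 in HA-Bcl-xL libraries, with a median of 9 to 12 fragments at the peak summit, as solved from the deposited fold and p-value of each peak. The IgG lists held 1674 to 2113 peaks in control and 244 to 268 in HA-Bcl-xL libraries. Among the neuroendocrine marker genes reported here, CHGB, which encodes a granin of secretory granules, was the only one with a peak within 1 kb of a transcript start in every H3K4me3 library, INSM1, NCAM1, SSTR2 and DDC had none in any, and CHGA, SYP, ENO2 and TPH1 had one in some libraries. Of 5 epithelial genes, KRT8, KRT18, EPCAM and CDH1 had a peak in every library and KRT19 in some. Of the matched fibroblast, endothelial and leukocyte markers, 1 of 4, 0 of 2 and 0 of 3 had a peak in any H3K4me3 library.

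A TGF-beta family ligand assembles a complex of type II and type I receptors, which are transmembrane serine/threonine kinases. The type II receptor phosphorylates the type I receptor, which then phosphorylates SMAD proteins that enter the nucleus and regulate transcription. TGF-beta receptors and activin receptors act mainly through SMAD2 and SMAD3, and BMP receptors through SMAD1, SMAD5 and SMAD9. Co-receptors bind ligand and present it to the kinases but have no kinase of their own. The pathway restrains the growth of many epithelial cells, and its receptors and SMADs are recurrently inactivated in carcinomas of the pancreas and gut.

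The peaks that separated or joined the libraries lay mostly in the first intron of 5 receptor genes, and the DNA beneath the ones on which the results turn is printed here from the GRCh37 reference, 5′ to 3′ on the plus strand, which is the coding strand of all 5 genes. A block is the stretch covered by overlapping peaks, and capitals mark the bases that lay under a peak in every library with a peak in that block. Blocks with a peak in only 1 library are in lower case throughout. The proximal TGFBR2 block, chr3:30648719-30648853, carried a peak in the pair of HA-Bcl-xL libraries and in none of the control. The distal TGFBR2 block, chr3:30649056-30649293, carried one in all 3 control libraries and in HA-Bcl-xL replicate 2. The BMPR1A block, chr10:88517184-88517430, was shared by 2 control and both HA-Bcl-xL libraries. The distal ACVR2A block, chr2:148603382-148603580, was found in the 3 control libraries, and the proximal one, chr2:148603003-148603112, in HA-Bcl-xL replicate 2. The upstream BMPR2 block, chr2:203240291-203240398, was found in control replicates 1 and 3. The ACVR1B block, chr12:52346194-52346362, was found in control replicates 1 and 2.
TGFBR2 proximal block: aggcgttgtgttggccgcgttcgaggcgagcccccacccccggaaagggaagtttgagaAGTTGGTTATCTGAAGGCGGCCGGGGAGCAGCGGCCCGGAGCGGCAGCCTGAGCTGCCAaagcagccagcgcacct
TGFBR2 distal block: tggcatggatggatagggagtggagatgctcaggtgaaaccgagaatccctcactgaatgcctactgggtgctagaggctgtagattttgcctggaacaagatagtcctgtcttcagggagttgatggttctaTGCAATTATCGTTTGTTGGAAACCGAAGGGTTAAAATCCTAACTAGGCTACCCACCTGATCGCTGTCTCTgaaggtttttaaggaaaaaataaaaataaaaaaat
BMPR1A intronic block: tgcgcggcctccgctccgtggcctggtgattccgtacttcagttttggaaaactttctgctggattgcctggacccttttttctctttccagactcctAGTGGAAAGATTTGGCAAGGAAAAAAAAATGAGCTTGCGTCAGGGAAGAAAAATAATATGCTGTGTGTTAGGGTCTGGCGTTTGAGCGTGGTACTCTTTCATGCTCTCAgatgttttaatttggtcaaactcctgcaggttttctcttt
ACVR2A distal block: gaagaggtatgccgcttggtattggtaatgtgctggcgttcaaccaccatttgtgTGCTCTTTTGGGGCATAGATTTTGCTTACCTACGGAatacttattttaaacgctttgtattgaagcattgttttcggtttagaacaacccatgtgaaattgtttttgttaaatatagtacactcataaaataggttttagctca
ACVR2A proximal block: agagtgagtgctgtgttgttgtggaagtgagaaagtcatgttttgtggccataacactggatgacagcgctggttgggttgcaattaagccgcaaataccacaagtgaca
BMPR2 upstream block: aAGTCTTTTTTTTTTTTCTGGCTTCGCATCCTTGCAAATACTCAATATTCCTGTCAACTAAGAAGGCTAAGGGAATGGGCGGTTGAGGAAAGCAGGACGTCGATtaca
ACVR1B intronic block: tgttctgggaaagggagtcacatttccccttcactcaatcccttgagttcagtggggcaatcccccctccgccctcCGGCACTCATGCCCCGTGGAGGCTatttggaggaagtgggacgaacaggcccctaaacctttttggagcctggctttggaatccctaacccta

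H3K4me3 peaks were listed near the starts of 5 of the 10 receptor genes: the type I receptors ACVR1B and BMPR1A and the type II receptors TGFBR2, ACVR2A and BMPR2. TGFBR1, ACVR1, ACVR2B, TGFBR3 and ENG had no peak within 10 kb of their 5′ end in any of the 5 H3K4me3 libraries, as was the case for 39.5% of all genes. Within 2.5 kb, 3 of the 10 genes (BMPR1A, TGFBR2 and BMPR2) had a peak in all 5 libraries, where 25.6% of all protein-coding genes did. The same 5 genes had no peak within 2.5 kb, against 46.5% of all genes. Within 1 kb, 0 of 10 receptor genes had a peak in all 5 libraries, against 21.3% of all genes, and 5 of 10 had none, against 51.8%. A missing peak says that none was detectable at this depth and at the authors' threshold, not that the mark was absent.

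The number of receptor genes with a peak within 1 kb was 4, 1 and 2 in control replicates 1 to 3, against 3 and 2 in replicates 2 and 3 of HA-Bcl-xL. The control value of 2.33 ± 1.53 (SD, n = 3) and the HA-Bcl-xL value of 2.5 ± 0.71 (SD, n = 2) differed by less than the spread between replicates. Over all protein-coding genes the same window held a peak for 33.7% ± 6.2 (SD, n = 3) in control and 37.3% ± 1.13 (SD, n = 2) in HA-Bcl-xL libraries. When the window was widened to 2.5 kb, the count rose to 5, 5 and 4 in control and was 4 and 3 in HA-Bcl-xL libraries, so the direction between the lines turned (4.67 ± 0.58 against 3.5 ± 0.71). Over all genes the 2.5 kb window held a peak for 38.9% in control and 42.6% in HA-Bcl-xL libraries. The groups met at 4 genes. No receptor gene had an IgG peak within 2.5 kb in any of the 6 IgG libraries, where 0.4% of all genes did in control IgG libraries on average and 0.1% in HA-Bcl-xL ones.

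In a Fisher's exact test of presence in the 5 H3K4me3 against the 6 IgG libraries, with Benjamini-Hochberg adjustment over all genes, 4 of the 10 receptor genes passed within 2.5 kb, against 34.7% of all genes. The adjusted p was 0.0086 for BMPR1A, TGFBR2 and BMPR2, each with 5 of 5 H3K4me3 and 0 of 6 IgG libraries, and 0.0437 for ACVR2A, with 4 of 5. Within 1 kb, 0 receptor genes passed, against 21.1% of all genes, and BMPR1A came nearest with an adjusted p of 0.0518 by the same exact test. Without control replicate 2, BMPR1A passed, as did 4630 of the 20136 genes. Within 1 kb of any transcript start in place of the 5′ end, BMPR1A, ACVR2A and BMPR2 passed, with 7239 genes in all. Within 10 kb, 3 receptor genes passed, against 39.4% of all genes. ACVR2A missed there (adjusted p = 0.173 by the exact test), because control IgG replicate 1 listed a peak of 3 fragments centred 9105 bp downstream of its 5′ end.

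**Figure D1:**
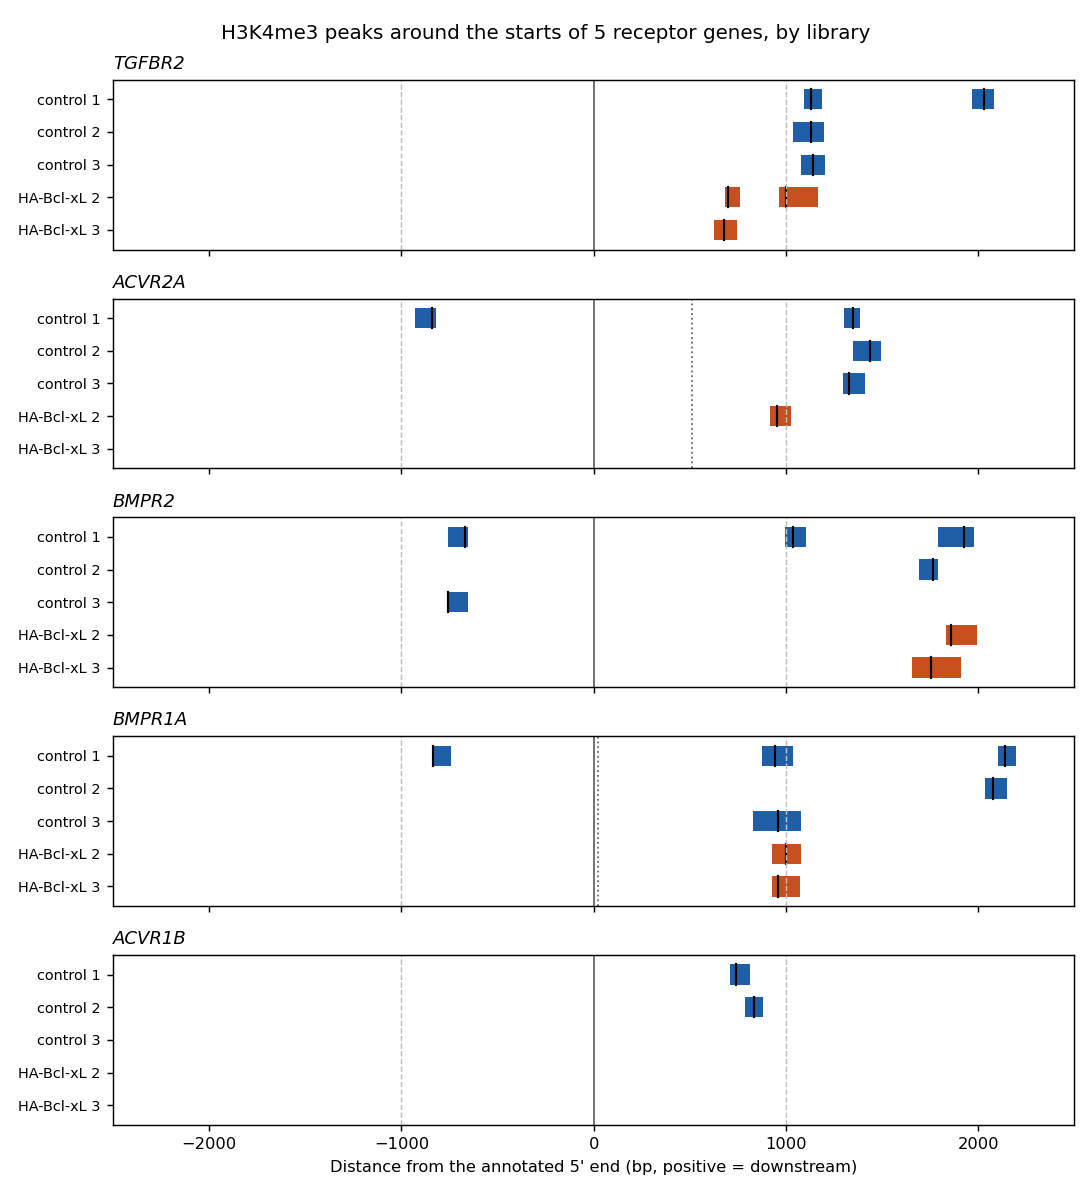
Position of every H3K4me3 peak no more than 2.5 kb from the 5′ end of the 5 receptor genes that had any, 1 row per library (blue, control; orange, HA-Bcl-xL). Bars span the peak, black ticks mark the summit, the solid line is the 5′ end, the dotted line is the start of the canonical transcript where it differs, and dashed lines stand 1 kb away; the nearest TGFBR2 peak of each control library begins 1036 to 1096 bp downstream, just outside the 1 kb line.

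Among the type I receptors, BMPR1A (chr10:88516353-88692582, plus strand), a kinase for BMP ligands, was the only one with a peak in every H3K4me3 library within 2.5 kb. Its bases under peaks there numbered 351, 113 and 245 in control replicates 1 to 3, against 149 and 145 in replicates 2 and 3 of HA-Bcl-xL. The highest-ranked peak stood at percentile 76.7, 33.1 and 35.7 of its own list in control and at 30.3 and 43.7 in HA-Bcl-xL libraries, where percentile 100 would be the strongest peak by −log10 p. Control replicate 1 was the highest and control replicate 2 had the fewest bases, and the groups overlapped on both measures. The log2 difference in bases was −0.54 (95% interval −1.66 to 0.58, limma adjusted p = 1).

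The printed BMPR1A block lies in intron 1, 831 to 1077 bp downstream of the 5′ end. Its summits were at +945 and +961 bp in control replicates 1 and 3 and at +1000 and +959 bp in replicates 2 and 3 of HA-Bcl-xL, so all 4 lie close together. Control replicate 2 had no peak there. It listed a peak further into the intron with its summit at +2078 bp, and control replicate 1 had a similar peak at +2140 bp. Control replicate 1 alone also listed a peak upstream, with its summit at −837 bp, beyond the start of the lncRNA ENSG00000272631, which begins on the opposite strand at −298 bp. Because of control replicate 2, the mean summit position differed by −348.5 bp (HA-Bcl-xL minus control, 95% interval −1593 to 896, limma adjusted p = 0.93), and by 26.5 bp without that library.

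ACVR1B (chr12:52345483-52390862, plus strand), which encodes the activin type I receptor ALK4, had a peak in control replicates 1 and 2 and in no other library. The first covered 100 bases with its summit at +741 bp and ranked at percentile 0.5, with 4 fragments, close to the bottom of its list; the fragment number was not a unique solution. The second covered 93 bases with its summit at +832 bp and ranked at percentile 58.9, with 8 fragments. These peaks shared 24 bases, the capitals in the printed block. No peak was listed in control replicate 3 or in either HA-Bcl-xL library, so the groups overlapped at 0. The difference in log2 bases under peaks was −1.13 (95% interval −2.3 to 0.05, limma adjusted p = 0.887). ACVR1B entered this comparison, which required a peak in at least 2 libraries, through control libraries alone, so a negative value was built in.

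TGFBR1 (chr9:101866320-101916474, plus strand), the type I partner of TGFBR2, had its nearest H3K4me3 peak 40.4 to 118 kb from its 5′ end across the libraries. Within the gene, 1 peak was listed, in HA-Bcl-xL replicate 2 at chr9:101906747-101906849 in intron 5, with 3 fragments and percentile 5.6. Its edge lay 2265 bp from the nearest transcript start. ACVR1 (chr2:158592763-158732842, minus strand), the BMP type I receptor ALK2, had 1 peak in the gene, in HA-Bcl-xL replicate 2 at chr2:158694880-158695047, with 6 fragments at percentile 27.8. Its summit lay 37857 bp into the gene, at −146 bp from the start of a shorter annotated transcript. The start of ACVR1 lies head to head with that of UPP2, at −372 bp. The lncRNA ENSG00000270557 starts at −1353 bp, also on the opposite strand. No H3K4me3 library had a peak at either start. These peaks in TGFBR1 and ACVR1 were seen in 1 of 2 HA-Bcl-xL libraries and in 0 of 3 control libraries.

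**Figure D2:**
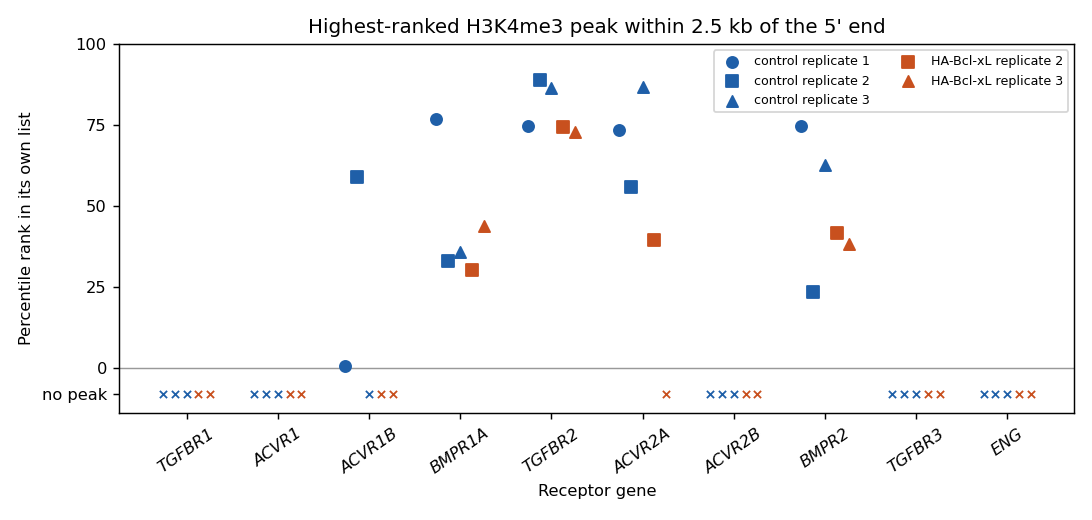
Percentile rank, within its own list, of the highest-ranked H3K4me3 peak no more than 2.5 kb from the 5′ end of each receptor gene (vertical axis, 100 is the strongest peak of a list), 1 symbol per library; crosses below the line mark libraries with no peak. TGFBR2 lies between 72.8 and 89.0 in all 5 libraries, and 5 genes show crosses only.

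TGFBR2 (chr3:30648093-30735634, plus strand), the kinase that binds TGF-beta and activates TGFBR1, had the highest mean peak rank of the 10 genes. Its best peak stood at percentile 74.6, 89.0 and 86.4 in control replicates 1 to 3 and at 74.5 and 72.8 in replicates 2 and 3 of HA-Bcl-xL, with 16, 17, 15, 14 and 14 fragments at the summit. The mean percentile over the 5 libraries was 79.5, against 63.9 for ACVR2A in the 4 libraries with a peak, 48.1 for BMPR2, 43.9 for BMPR1A and 29.7 for ACVR1B in the 2 libraries with one. Percentiles come from lists of different lengths and were not tested between the lines.

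The TGFBR2 summit lay nearer the start in both HA-Bcl-xL libraries than in any control library. The summit of the highest-ranked peak lay at +1130, +1132 and +1142 bp in control replicates 1 to 3 and at +696 and +677 bp in replicates 2 and 3 of HA-Bcl-xL. The 3 control summits lay close together, as did the HA-Bcl-xL pair, and the groups did not overlap. The mean was 1135 ± 6.43 bp (SD, n = 3) in control and 686.5 ± 13.4 bp (SD, n = 2) in HA-Bcl-xL libraries, a difference of −448 bp (SE 15.6, 95% interval −493 to −404). The limma adjusted p was 0.0026, and 0.641% of the 5151 genes with a peak in every library were called with a summit further upstream in HA-Bcl-xL, 1.22% in either direction; 3.94% had an unadjusted p under 0.05. A simulation shuffled each gene's positions among the libraries and shifted some genes, and the same fit also called genes that were not shifted. Such a shuffle can restore the observed split, and the false calls are not counted here. The TGFBR2 adjusted p is given as a value and not read as a difference. The exact two-sided permutation p was 0.2, the smallest that 3 against 2 libraries allow. Across the same genes, 9.75% had groups that did not overlap in this direction and 19.5% in either.

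The printed TGFBR2 blocks differ in composition. The proximal block of 135 bp, in intron 1 and 626 to 760 bp downstream of the 5′ end, is 66.7% G + C with 12 CpG dinucleotides. The distal block of 238 bp, 963 to 1200 bp downstream, is 42.9% G + C with 4 CpG. HA-Bcl-xL replicate 2 listed a peak in both: its distal peak, with 12 fragments at percentile 59.8, ranked below its proximal one and overlapped the control peaks in the 70 bases printed in capitals. HA-Bcl-xL replicate 3 listed the proximal peak only. Control replicate 1 had a further peak at +2028 bp, with 11 fragments at percentile 35.6, that no other library had.

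The same positions set how TGFBR2 was counted. Within 1 kb of the 5′ end it was the only receptor gene with a peak in 2 of 2 HA-Bcl-xL and 0 of 3 control libraries, a pattern found in 0.844% of all genes. The reverse pattern, all control and no HA-Bcl-xL libraries, was shown by 0 receptor genes, against 0.248% of all genes. These backgrounds of 170 and 50 genes rested on the set of libraries: they were 218 to 613 and 79 to 233 with 1 library left out, the highest being without control replicate 1 and without HA-Bcl-xL replicate 2. Fisher's exact test gave p = 0.1 for TGFBR2, the smallest possible with 3 against 2 libraries, and an adjusted p of 1; by this test 0% of all genes were called, and 0 had an unadjusted p under 0.05. The nearest peak of each control library began 1036 to 1096 bp downstream, just outside the window, and within 2.5 kb TGFBR2 had a peak in every library. There, 0 receptor genes had either pattern, against 0.824% and 0.248% of all genes, and within 10 kb again 0, against 0.904% and 0.243%. Bases under peaks within 2.5 kb were 209, 163 and 123 in control and 279 and 118 in HA-Bcl-xL libraries; HA-Bcl-xL replicate 2 was the highest and replicate 3 the lowest of the 5, so the groups overlapped. The log2 difference was 0.06 (95% interval −0.97 to 1.08, limma adjusted p = 1). A TGFBR2 IgG peak was listed once, in control replicate 2, 21840 bp into the gene.

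ACVR2A (chr2:148602086-148688395, plus strand), a type II receptor for activins and some BMPs, had peaks in the 3 control libraries and in 1 of 2 HA-Bcl-xL libraries within 2.5 kb. The highest-ranked summit lay at +1349, +1438 and +1326 bp in control replicates 1 to 3, at percentiles 73.3, 55.7 and 86.8, and at +953 bp in HA-Bcl-xL replicate 2, at percentile 39.6. HA-Bcl-xL replicate 3 had none. All of these lay in intron 1, and the canonical transcript starts 512 bp downstream of the annotated 5′ end. The control peaks shared 36 bases, and the HA-Bcl-xL peak overlapped none of them. The HA-Bcl-xL peak was nearer the 5′ end than these control peaks, but not than a lower-ranked upstream peak of control replicate 1, and with a single HA-Bcl-xL library the summit position was not tested.

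Bases under ACVR2A peaks within 2.5 kb were 192, 144 and 113 in control and 110 and 0 in HA-Bcl-xL libraries. Every control library was above both HA-Bcl-xL libraries, narrowly so for the closest pair. Of the 9448 genes compared, 4.55% had groups that did not overlap in this direction, 10.9% in the other and 15.5% in either. The log2 difference was −1.23 (95% interval −2.53 to 0.06, limma adjusted p = 0.892, exact permutation p = 0.2). It was −2.03 without HA-Bcl-xL replicate 2 and −0.44 without replicate 3, and −2.29 and −0.54 with pseudocounts of 10 and 200 in place of 50. It was 0.06 within 1 kb, where control replicate 1 had 109 bases, HA-Bcl-xL replicate 2 had 84 and the other libraries had 0. The 109 bases are an upstream peak with its summit at −839 bp. Control replicate 1 also listed a peak of 3 fragments at +8159 bp, percentile 6.2, which is the level of the single control IgG peak at +9105 bp.

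BMPR2 (chr2:203241050-203432474, plus strand), the type II receptor for BMPs, had a peak in every library, but not at the same place. Its highest-ranked summit lay at +1037, +1762 and −756 bp in control replicates 1 to 3 and at +1858 and +1756 bp in replicates 2 and 3 of HA-Bcl-xL, at percentiles 74.8, 23.3, 62.7, 41.6 and 38.1. The HA-Bcl-xL libraries both fell in the intron 1 block that control replicates 1 and 2 also had, at +1928 and +1762 bp. No base of that block was under a peak in all 4 libraries. The mean summit position differed by 1126 bp (95% interval −1357 to 3609, limma adjusted p = 0.93), and by 407.5 bp without control replicate 3 and 1666.5 bp without control replicate 2.

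The BMPR2 peaks fell into 3 blocks. The upstream block, from −759 to −652 bp, was found in control replicates 1 and 3, where the peaks overlapped in 103 of 108 bases. It lies beyond the start of the lncRNA ENSG00000273456, at −185 bp. A peak in control replicate 1 at chr2:203242044-203242151 overlapped an untranslated exon of BMPR2 and lay 6 bp from a transcript start, with 21 fragments at percentile 74.8. The protein-coding gene ENSG00000289490 starts 785 bp downstream of the BMPR2 5′ end on the same strand, so marks in this stretch cannot be assigned to either gene. Bases under peaks within 2.5 kb were 401, 96 and 104 in control and 161 and 254 in HA-Bcl-xL libraries. Control replicate 1 was the highest and the other control libraries were the lowest, so the groups overlapped, and the log2 difference was 0.13 (95% interval −1.07 to 1.34, limma adjusted p = 1).

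Within 1 kb, BMPR2 and ACVR1B each had a peak in 2 of 3 control libraries and in neither HA-Bcl-xL library. Leaving out control replicate 2 put BMPR2 among the genes with a peak in every control and no HA-Bcl-xL library, 130 genes in all under that choice. Leaving out control replicate 3 did the same for ACVR1B, among 170 genes. The opposite pattern, shown by TGFBR2, cannot be lost by leaving out a library. For each of the 5 receptor genes tested, the limma comparison of bases under peaks made no call; it called 0% of the 9448 genes, of which 5.47% had an unadjusted p under 0.05. The lack of calls does not show that the lines were alike, since the interval given with each gene leaves room for differences in log2 bases.

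ACVR2B (chr3:38495381-38534633, plus strand), the second activin type II receptor, had no peak within 10 kb of any annotated start. Its nearest H3K4me3 peak lay 37.4 to 315 kb from its 5′ end. The closest, in control replicate 3, lay within the gene 37425 bp downstream of that end, and no other H3K4me3 library had a peak in the gene. Its antisense gene ACVR2B-AS1 starts 930 bp downstream of that end, so this shared region was also without a peak. The co-receptor ENG (chr9:130577292-130616937, minus strand), endoglin, which is best known from endothelium, had its nearest peak 44.2 to 68.0 kb away and none in the gene. The endothelial markers CDH5 and KDR likewise had no peak.

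The co-receptor TGFBR3 (chr1:92145900-92371892, minus strand), betaglycan, had no peak near its 5′ end, but its canonical transcript starts 20184 bp further into the gene. Near that start, control replicate 1 had a peak at chr1:92350808-92350966 with 8 fragments at percentile 27.9. HA-Bcl-xL replicate 3 had a peak over the same bases, chr1:92350783-92350991, with 9 fragments at percentile 38.9, and a further one at chr1:92350459-92350541. The summits lay 548, 684 and 984 bp downstream of the nearest transcript start. The other 3 libraries had none, so each line had 1 library with the mark and at least 1 without. Counted within 1 kb of any transcript start in place of the 5′ end, the receptor genes with a peak numbered 3.67 ± 1.15 (SD, n = 3) in control and 4.5 ± 0.71 (SD, n = 2) in HA-Bcl-xL libraries, against 40.7% and 44.9% of all genes.

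**Figure D3:**
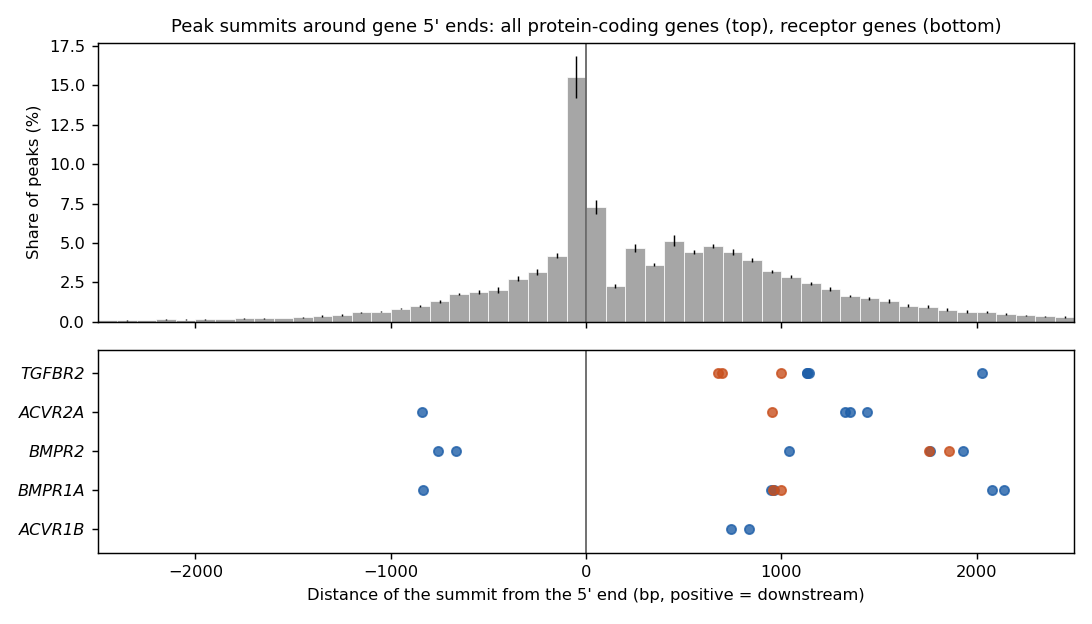
Distance of peak summits from the 5′ end (bp). Top, share of all H3K4me3 peaks near protein-coding genes per 100 bp (bars, mean of 5 libraries, with lines for the SD between libraries). Bottom, the 28 peaks of the 5 receptor genes (blue, control; orange, HA-Bcl-xL), none of which has its summit within 600 bp of the 5′ end.

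The receptor peaks lay away from the annotated 5′ end. Of 28 receptor peaks within 2.5 kb, 24 had the summit more than 600 bp downstream, 4 more than 600 bp upstream and 0 closer. Of the 28, 23 lay in intron 1. Some summits were closer to another transcript start of the gene. The BMPR2 summit of control replicate 1 lay at −70 bp from one, and the ACVR2A summit of HA-Bcl-xL replicate 2 at +441 bp. Across all genes, 55.7 to 58.0% of such peaks per library had the summit within 600 bp, 33.4 to 34.8% lay further downstream and 8.6 to 9.5% further upstream. No receptor gene had a peak in the stretch from 250 bp before to 50 bp after its 5′ end in any library, where 43.8 to 50.6% of all genes with a peak within 2.5 kb did. The 600 bp limit was chosen after these positions were seen, and the 28 peaks come from 5 genes and 5 libraries, so they are not independent and no test is given. The peaks were 76 to 254 bp wide and held 4 to 23 fragments at the summit. The local background that the caller set against them, as solved from fold and p-value, had a median of 0.9 to 1.98 fragments per library at the receptor peaks and of 0.54 to 0.82 at all peaks near starts. The part of that background in the peak positions was not tested.

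**Figure D4:**
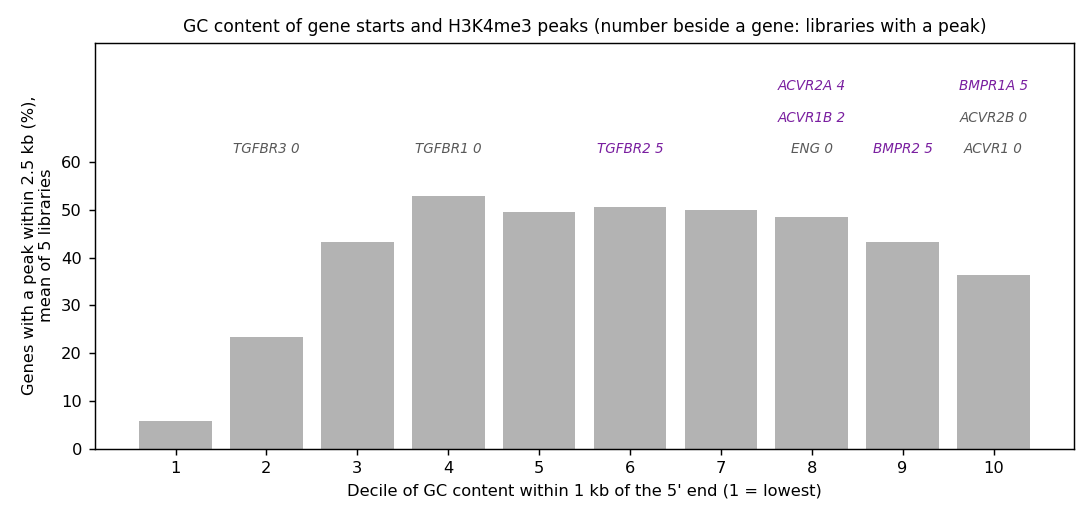
Share of protein-coding genes marked by H3K4me3 within 2.5 kb of the 5′ end (bars, mean of 5 libraries, %) by decile of G + C content within 1 kb of that end (1 is the lowest). Receptor genes are written above their decile with the number of libraries in which they had a peak; in the highest decile BMPR1A had a peak in 5 libraries and ACVR1 and ACVR2B in 0.

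The base composition of the starts did not sort the receptor genes by G + C alone. The G + C content within 1 kb of the 5′ end was 69.2% for BMPR1A, 67.2% for ACVR2B and 66.0% for ACVR1, all in the highest decile of genes, yet only BMPR1A was marked. In that decile 36.3% of genes had a peak within 2.5 kb, against 52.9% in decile 4, which holds TGFBR1 at 52.3%. TGFBR3, at 43.3%, stood in decile 2, where 23.3% of genes had a peak. TGFBR2 was at 55.9%, close to the median of all genes of 55.0%.

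CpG content relative to that predicted from base composition separated the 2 sets of receptor genes further. It was 0.999 for ACVR2A, 0.917 for BMPR1A, 0.87 for BMPR2, 0.801 for ACVR1B and 0.788 for TGFBR2, the 5 genes with peaks. Among the 5 without, it was 0.754 for ACVR1, 0.74 for ACVR2B, 0.556 for TGFBR3, 0.527 for TGFBR1 and 0.369 for ENG. Taking a peak within 2.5 kb of the 5′ end as marked, every marked receptor gene was above every unmarked one. The medians were 0.87 and 0.56, against 0.61 for all genes. The canonical starts of TGFBR1 and TGFBR3 lie 1075 and 20184 bp downstream of the 5′ end, outside the windows used for G + C, CpG and letters. TGFBR3 had peaks near its canonical start in control replicate 1 and HA-Bcl-xL replicate 3. The gap between the lowest marked gene, TGFBR2, and the highest unmarked one, ACVR1, was small, and no test was made of this order. In the 300 bases around the start, from 250 before to 50 after, the letters GGGCGG on either strand, the core of the GC box, were found in 8 of 10 receptor genes and in 52.2% of all genes. CCAAT was found in 3 (TGFBR1, ACVR1 and TGFBR2), against 35.8%, and TATAAA in 0, against 10.9%. A match to letters is not a measured binding site.

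The gene whose bases under peaks across the 5 libraries were most like those of TGFBR2, among 9448 genes, was OAT, at a Euclidean distance of 0.3 on the centred log2 scale, followed by ZSWIM1 and RIN2, both at 0.35. OAT had 242, 147 and 100 bases in control and 274 and 109 in HA-Bcl-xL libraries. All 3 genes shared with TGFBR2 a value in HA-Bcl-xL replicate 2 above that in every other library. They were picked for likeness over these same values, so a shared profile was built in.

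Of 51 other genes of the pathway, 7 had a peak within 2.5 kb in all 5 H3K4me3 libraries and 18 had none, which is 13.7% and 35.3%, against 25.6% and 46.5% of all genes. Within 1 kb, 4 (7.8%, against 21.3% of all genes) had a peak in every library and 32 had none (62.7%, against 51.8%). The 4 were the BMP-activated SMAD5, the BMP target genes ID1 and ID3, which encode inhibitors of helix-loop-helix factors, and SNAI2, which encodes a repressor of epithelial genes. No gene of the 51 had a peak in every library of 1 line and none of the other, within either 1 or 2.5 kb, where 0.844% and 0.824% of all genes had a peak in HA-Bcl-xL only and 0.248% in control only. Of the 4 remaining receptors of the family, ACVR1C (ALK7) had a peak within 1 kb in 1 control library and in both of HA-Bcl-xL, and BMPR1B had one within 2.5 kb in 1 control library. ACVRL1 (ALK1) and AMHR2, the receptor for anti-Müllerian hormone, had none in any library.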

How the data were processed

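CUT&RUN libraries were made with a ThruPLEX kit, per the labels' protocols. The submitters' processing notes name bcl2fastq 2.20, Trimmomatic 0.36, Bowtie2 2.2.9, MACS2 2.1.1, deepTools 3.5.1 and hg19, without their roles. The authors deposited 1 narrowPeak list per library, with a score, a fold enrichment (ratio), −log10 p and −log10 q values and a summit position for each peak; a peak caller run on pooled replicates is not recorded. Scores and folds were used within a list only. Fold and −log10 p were solved for a whole number of fragments at the summit, to within 0.001, for 95.9 to 99.97% of peaks.

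Genes were protein-coding genes of GENCODE release 44 lifted to GRCh37, and 0 peaks ended beyond its chromosomes. A gene had a peak with at least 1 bp of it within 1 kb of the 5′ end (also 2.5 and 10 kb, and any transcript start). Presence was tested with Fisher's exact test (scipy 1.17.1). Bases under peaks within 2.5 kb, as log2(bases + 50) centred per library, for genes with a peak in at least 2 libraries, and the summit position of the highest-ranked peak were tested with limma 3.58.1 (R 4.3.3), with Benjamini-Hochberg adjustment over all genes at 0.05. Presence in 1 line only and the limma fits of bases and of summit position were tested on simulated data. CpG content is observed over predicted from C and G. Python 3.11.15, pandas 2.3.3, numpy 2.4.6, matplotlib 3.10.9 and pysam 0.24.0 served the rest.

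The receptor genes, the 51 pathway genes, markers and tests were chosen with earlier results of these data known. All 10 receptors were named, with neighbours starting within 2.5 kb, pathway genes marked within 1 kb in every library, the other receptors, and the 3 genes closest to the highest-ranked receptor. PECAM1 was not matched in the annotation and not used here, and a further marker is not reported here. Counts cover counting error only, since PCR copies are not independent molecules. The first H3K4me3 replicate of HA-Bcl-xL was not analysed here.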

Additional observations from a re-analysis of the deposited data

How the results depend on the processing

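Other settings gave 122 values, of which 107 held the reported direction and side of the threshold or stayed near the reported value; so did 61 of 79 with 1 library left out. The difference in the number of receptor genes with a peak within 1 kb (0.167, HA-Bcl-xL minus control) was −1.167 within 2.5 kb and within 10 kb, and −0.5 to 1 with 1 library left out (−0.5 without control replicate 2, −0.333 without HA-Bcl-xL replicate 2). Genes called against IgG numbered 4247 within 1 kb, 6980 within 2.5 kb, 7931 within 10 kb, 7239 at any transcript start, and 4248 to 5115 with 1 library left out. For the log2 bases under peaks within 1 kb in place of 2.5 kb, ACVR2A gave 0.06, BMPR2 −1.21 and TGFBR2 1.63. In that window BMPR2 had bases in control libraries only and TGFBR2 in HA-Bcl-xL libraries only. Each entered the comparison through those libraries alone, so both signs were built in. With a −log10 q of at least 5, BMPR1A gave 0.02 and BMPR2 0.9, and with lists of equal length BMPR1A gave −1.33, TGFBR2 0.42 and BMPR2 0.46. Pseudocounts of 10 and 200 gave −2.29 and −0.54 for ACVR2A and −2.39 and −0.43 for ACVR1B. With 1 library left out, TGFBR2 ranged from −0.39 (without HA-Bcl-xL replicate 2) to 0.49, BMPR2 from −0.18 (without HA-Bcl-xL replicate 3; −0.12 without control replicate 2) to 0.46 and ACVR2A from −2.03 to −0.44. Summit position calls numbered 63, and 101 within 10 kb, 37 with a −log10 q of at least 5, 40 with lists of equal length and 89 to 273 with 1 library left out. BMPR1A's summit difference of −348.5 bp was −540 to 26.5 bp with 1 library left out (26.5 without control replicate 2) and 245.5 bp for the summit nearest the start, and BMPR2's of 1126 bp was 407.5 to 1666.5 bp with 1 library left out and 1694.3 bp for the summit nearest the start. The TGFBR2 summit difference had adjusted limma p-values from 0.00119 to 0.0249 in 11 of 12 alternatives. With a replicate block it was −450.5 bp (adjusted p = 0.278), and 0 genes were called. In bases under peaks, same-numbered libraries did not deviate together (correlations 0.01 and 0.03 over genes, across 2 shared numbers). With 2 HA-Bcl-xL libraries, each set against their mean, this check could hardly show pairing, and summit position was not checked. The main fits did not take the numbers as pairs, and whether they are pairs was not settled. Summit position within 1 kb gave no TGFBR2 value, since no control library had a peak there. Genes with a peak in every control and no HA-Bcl-xL library numbered 50, 79 with lists of equal length and 79 to 233 with 1 library left out; the reverse pattern's 170 became 218 to 613. The cause of these changes was not tested. A median of 9 to 12 fragments at a summit limits what a missing peak can show.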
